A study of Mus musculus with 3 samples.

Results

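Krt5, Krt14, Krt15 and Krt17 are keratin genes of the basal layer of stratified epithelia, and their transcripts were followed here across single mouse PC cells. The 4 genes were taken by symbol from the 32287 features of the deposited matrix and all 4 were found. PC cells come from oesophageal organoids of mice with floxed Trp53, the gene of the tumour suppressor p53, which was deleted by an adenovirus carrying Cre and EGFP. Cdkn2a, which encodes p16 and p19Arf, inhibitors of the cell cycle, was knocked out by CRISPR. The cells also expressed Cas9 constitutively, carried a transfected barcode library, were grown for 3 passages and were sorted as live RFP-positive cells. The labels list 3 libraries of this culture, for gene expression, barcodes and scars, and the values form 1 matrix, so there is 1 sample with no control and no replicate. No p-value was therefore computed, and every interval below is an exact 95% interval for counting error only.

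Keratins build the intermediate filaments of epithelial cells. A filament needs a type II keratin paired with a type I keratin, and in the basal layer of the oesophagus and the skin the pair is Krt5 (type II) with Krt14 (type I). Krt15 is a further type I keratin of basal cells, used in the mouse oesophagus as a marker of a progenitor population. Krt17 is a type I keratin that stratified epithelia make mostly after wounding, in hair follicles and in tumours. Cells that leave the basal layer of the oesophagus normally exchange these keratins for Krt4 and Krt13.

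On GRCm38 (GENCODE M21), Krt5 (ENSMUSG00000061527) lies at chr15:101707070-101712898 and has 9 exons. The type I genes lie in the keratin cluster of chromosome 11, each with 8 exons: Krt15 (ENSMUSG00000054146) at chr11:100131758-100135928, Krt14 (ENSMUSG00000045545) at chr11:100203162-100207548 and Krt17 (ENSMUSG00000035557) at chr11:100256217-100261029. All are transcribed from the minus strand. Krt14 and Krt17 are 48.7 kb apart with Krt16 between them.

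The coding sequences of Krt14 and Krt17 were identical at 80.9% of 1287 aligned bases, and their longest identical stretch, 71 bases, ended 319 bases before the end of the Krt14 transcript. A 3' library reads this end of the molecule, so the stretch is printed with 15 bases on each side and with its best match in Krt16 and Krt15. It is coding sequence, 5′ to 3′, across the junction of exons 6 and 7 of each gene, from the GENCODE M21 transcripts. Capitals mark bases that differ from Krt14. The spans on the minus strand of GRCm38 are chr11:100204012-100204199 for Krt14, chr11:100257337-100257524 for Krt17, chr11:100246507-100246701 for Krt16 and chr11:100132615-100133082 for Krt15.
Krt14: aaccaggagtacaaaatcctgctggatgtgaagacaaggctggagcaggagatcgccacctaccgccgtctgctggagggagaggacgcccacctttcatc
Krt17: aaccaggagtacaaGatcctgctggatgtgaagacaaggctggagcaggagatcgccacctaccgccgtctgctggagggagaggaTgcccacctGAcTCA
Krt16: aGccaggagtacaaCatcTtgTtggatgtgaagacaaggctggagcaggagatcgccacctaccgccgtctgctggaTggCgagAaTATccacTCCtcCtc
Krt15: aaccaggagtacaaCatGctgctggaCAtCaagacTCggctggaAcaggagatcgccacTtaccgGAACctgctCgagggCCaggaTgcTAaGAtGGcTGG

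Krt17 differed from Krt14 at 7 of these 101 bases, Krt16 at 14 and Krt15 at 26. Over the last 500 bases of the transcript, 81 of 470 windows of 31 bases in Krt14 (17.2%) also occurred in another gene's transcript, all 81 of them in Krt17. Of these, 25 also occurred in Krt16 and 11 in Krt42, a further type I keratin. None of the 470 windows of Krt5 or of Krt15 occurred elsewhere. After the stop codon, Krt14 and Krt17 shared no run longer than 8 bases. Whether the counting dropped reads that match several genes is not given in the sources used here. How these reads were split between Krt14, Krt17, Krt16 and Krt42 is therefore uncertain, and their share of the counts was not measured.

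The matrix held 18116 barcodes with 47720034 UMIs, counts of distinct molecules. Of these, 14925 barcodes were kept as cells, each with 500 or more genes, 1000 or more UMIs and no more than 20% of UMIs from mitochondrial genes. The labels put the cells recovered from the sort at about 20000. Their median depth was 2955 UMIs (range 1000 to 23453). Levels are given in CPM, that is, a gene's UMIs per 1000000 UMIs summed over a set of cells. A 3' UMI library counts 1 end per molecule, so CPM values were compared between genes without division by length. All 8 basal epithelial markers reached 10 CPM, among them Trp63, the master regulator of stratified epithelium. The immune and endothelial marker lists summed to 0.968 and 1.36 CPM, and the defining markers Adgre1, Cdh5 and Emcn had 0 UMIs.

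Krt17 was the most abundant of the 4 genes at 1397 CPM (1386 to 1408), from 63487 UMIs. It ranked 97th of 20908 detected genes. Krt14 followed at 1145 CPM (1136 to 1155) and Krt5 at 628 CPM (621 to 635). Krt15 was far below them at 3.87 CPM (3.32 to 4.49), with 176 UMIs in 89 cells. The intervals of the 4 levels did not overlap. Krt17 thus gave 44.0% of the UMIs of the 4 genes, Krt14 36.1%, Krt5 19.8% and Krt15 0.122%.

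At least 1 UMI of Krt17 was present in 80.1% of kept cells, of Krt14 in 78.7%, of Krt5 in 65.5% and of Krt15 in 0.596%. Detection depends on depth, so shares and correlations were also taken on cells cut down to 1500 randomly drawn UMIs (thinned cells), leaving 1644 shallower cells aside. Among the 13281 thinned cells the shares were 71.5% (70.7 to 72.3) for Krt17, 67.7% (66.9 to 68.5) for Krt14, 52.5% (51.7 to 53.4) for Krt5 and 0.41% (0.31 to 0.53) for Krt15. The counts of Krt17 and Krt14 varied more between thinned cells than those of most genes. Their variance-to-mean ratios were 2.69 and 2.67, ranks 45 and 46 of 2624 genes, where the median gene had 1.05. Krt5 had 1.57.

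The cells formed 10 clusters, numbered by size, in a clustering that left out all keratins and the other listed genes. Cluster 4 (1958 cells, led by Grem1, Ccn5 and Cacna1c) was mesenchymal-like, cluster 3 (2112 cells) cycling-like, cluster 8 (114 cells, led by Ly6c1, Pate14 and Krt7) simple epithelial-like and cluster 9 (83 cells) interferon-like. The others stayed unnamed: cluster 1 (4651 cells, led by Prl2c3, Prl2c2 and Sprr1b), cluster 2 (3317 cells, Krt7, Sorbs2), cluster 5 (1214 cells, Ltf, Gabrp, Lcn2), cluster 6 (748 cells, Zfpm2, Aff2, Eda), cluster 7 (663 cells, Sncg, Fst, Krt7) and cluster 10 (65 cells, Egln3, Ero1l, Ndrg1). Genes that vary with the keratins did enter the clustering, so differences between clusters are descriptions.

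Krt5, Krt14 and Krt17 were high in 7 of the 10 clusters and low together in cluster 4 and cluster 6. Summed, the 4 genes reached 5438 CPM in cluster 7, 4055 in cluster 5 and between 3339 and 3807 in clusters 1, 2, 3, 9 and 10. They were at 1418 CPM in cluster 8, 951 in cluster 6 and 559 in cluster 4. Among clusters 3, 2, 10, 1 and 9, taken in falling order, no neighbours differed beyond their counting intervals.

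Krt5 was highest in cluster 7 (1053 CPM, 1006 to 1102) and cluster 5 (979.6 CPM, 949 to 1011), whose intervals overlap. It lay between 637 and 777 CPM in clusters 1, 2, 3, 9 and 10, at 226 in cluster 6, at 58.4 (37.8 to 86.2) in cluster 8 and at 49.5 (44.3 to 55.1) in cluster 4. Krt14 was also highest in cluster 7, at 2364 CPM (2293 to 2437), followed by cluster 10 at 1939 (1707 to 2194). Clusters 3 and 5 had 1507 and 1480.4 CPM of Krt14, and clusters 2, 1 and 9 between 1172 and 1207, with overlapping intervals inside each of these sets. The lowest Krt14 levels were 352, 266 and 218 CPM in clusters 6, 8 and 4.

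Krt17 again peaked in cluster 7 (2018 CPM, 1952 to 2086), with cluster 2 next (1853 CPM, 1822 to 1884). Unlike the other members, Krt17 stayed at 1093 CPM (996 to 1197) in simple epithelial-like cluster 8. It was 854 CPM (703 to 1029) in cluster 10, 373 in cluster 6 and 291 (279 to 305) in cluster 4. Krt15 had 99 of its 176 UMIs in cluster 5 (25.7 CPM, 20.9 to 31.3) and 53 in cluster 2 (7.24 CPM, 5.42 to 9.46). In each of the other clusters it had 10 UMIs or fewer. In clusters 6, 8 and 9 it had 0 UMIs, which allows up to 2.59, 7.01 and 11.7 CPM.

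**Figure D1:**
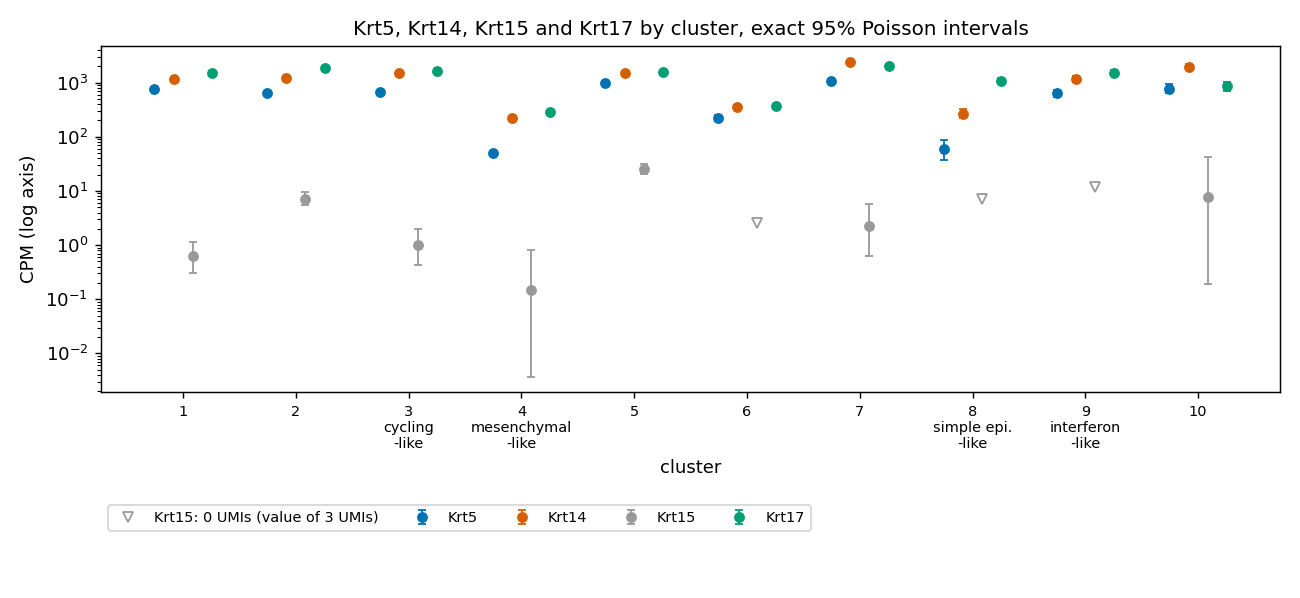
CPM of Krt5, Krt14, Krt15 and Krt17 (log axis) in each of the 10 clusters, with exact 95% Poisson intervals; open triangles stand at the value of 3 UMIs where Krt15 had 0 UMIs. Krt5, Krt14 and Krt17 sit near 1000 CPM in most clusters and drop in clusters 4 and 6, while in cluster 8 Krt17 stays at 1093 CPM and Krt5 falls to 58.4 CPM.

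Cluster 6 differs from the rest in library quality: its median depth was 1220.5 UMIs and Malat1, a nuclear RNA, took 84469 CPM there, against 9346 to 30048 CPM in the other clusters. Its Krt14:Krt5 ratio, 1.56 (1.33 to 1.83), was close to those of cluster 1 (1.59) and cluster 5 (1.51). It was below those of cluster 3 (2.22, 2.15 to 2.29) and cluster 4, and its interval overlapped that of cluster 2 (1.85, 1.78 to 1.91). The part of depth and nuclear RNA in its low keratin level was not tested.

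The ratio of Krt14 to Krt5 UMIs was 1.82 (1.80 to 1.85) over all kept cells. It ranged from 1.51 to 2.50 in 8 clusters, over which Krt5 itself moved from 226 to 1053 CPM. In the mesenchymal-like cluster 4 the ratio was 4.41 (3.91 to 4.98) and in cluster 8 it was 4.56 (2.94 to 7.34). Krt17 to Krt14 was 1.22 (1.21 to 1.23) overall. This ratio was highest in cluster 8 at 4.11 (3.34 to 5.08), and below 1 in cluster 7 at 0.854 (0.816 to 0.893) and in cluster 10 at 0.44 (0.349 to 0.553).

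**Figure D2:**
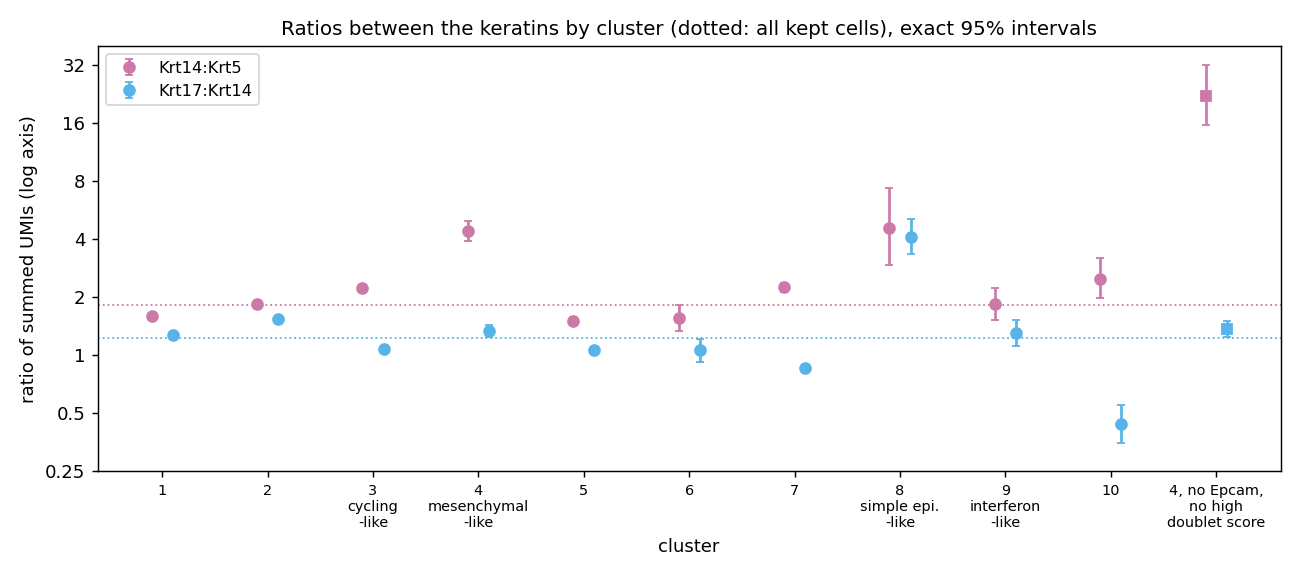
Ratios of summed UMIs, Krt14:Krt5 and Krt17:Krt14 (log axis), by cluster with exact 95% intervals; dotted lines give all kept cells, and squares on the right give the cells of cluster 4 with no Epcam UMI and no high doublet score. Krt14:Krt5 rises from 1.82 over all cells to 4.41 in cluster 4 and to 22.0 in its subset at the right.

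The mesenchymal-like cells carried a distinct mixture of the basal keratins, with Krt14 and Krt17 present and Krt5 nearly gone. Vim, an intermediate filament protein of mesenchymal cells, reached 1027 CPM in cluster 4 and at most 21.7 CPM in any other. Epcam, an epithelial surface protein, had a UMI in 220 of its 1958 cells. In the 1738 cells with no Epcam UMI, Krt14 was 150.5 CPM (141 to 161), Krt17 203 (191 to 215) and Krt5 14.8 (11.9 to 18.3), so that Krt14:Krt5 was 10.2 (8.13 to 12.8). At a median depth of 3252.5 UMIs, 35.4% of the 1738 cells had a Krt14 UMI, 37.7% a Krt17 UMI and 3.34% a Krt5 UMI. Outside the cluster, at a median of 2878 UMIs, the shares were 84.5%, 85.8% and 74.1%. In the 220 cells with Epcam, Krt14:Krt5 was 2.43 (2.09 to 2.82), nearer to the 1.79 (1.77 to 1.82) of all cells outside the cluster.

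Doublet scores move with this result. The scoring did not leave out the keratins, so a cell of cluster 4 may score high partly for its Krt5. That part was not tested. The 10% of kept cells with the highest doublet scores included 241 cells of cluster 4, and 56.8% of these had an Epcam UMI. Without them, Krt5 in cluster 4 fell to 12.5 CPM (9.79 to 15.8), while Krt14 was 159.7 (149.5 to 170.4) and Krt17 220.0 (208 to 232). With both steps, 1634 cells remained with 34 Krt5, 747 Krt14 and 1022 Krt17 UMIs. These are 6.27, 138 and 188 CPM, and Krt14:Krt5 was 22.0 (15.6 to 31.97). For comparison, Krt14:Krt5 was 1.79 in the cells outside the cluster and 1.54 (1.34 to 1.76) in the 3191 barcodes removed by the filters. Krt17:Krt14 in these 1634 cells, 1.37 (1.24 to 1.51), was near but above that of the cells outside, 1.22 (1.20 to 1.23). Krt15 had 0 UMIs in them.

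**Figure D3:**
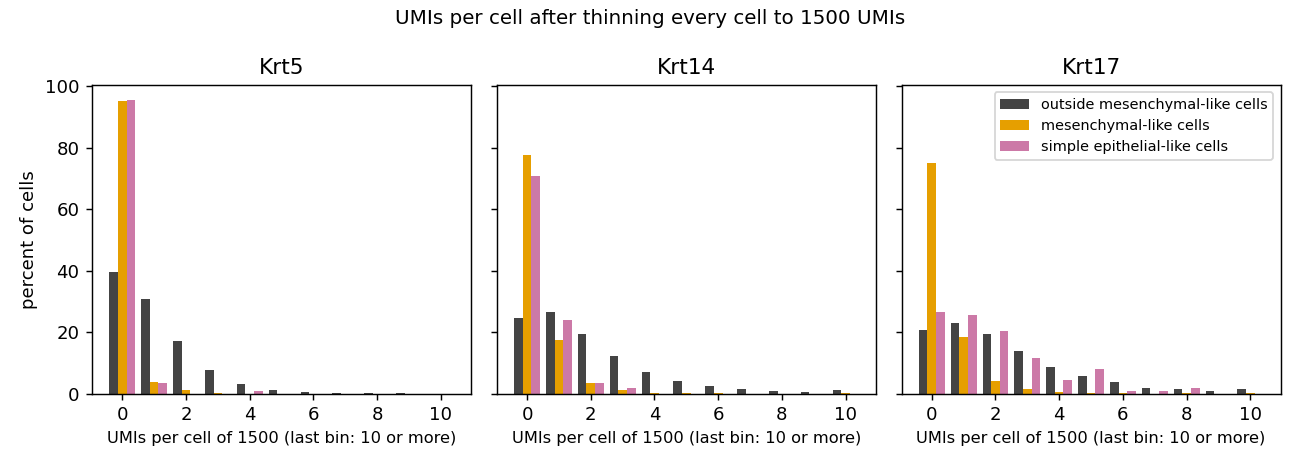
Percent of cells by UMIs of Krt5, Krt14 and Krt17 after thinning every cell to 1500 UMIs, for all cells outside the mesenchymal-like cluster, for the mesenchymal-like cells and for the simple epithelial-like cells, which are also among the first group. Most mesenchymal-like cells have 0 UMIs of each gene, and 108 of 113 simple epithelial-like cells have 0 of Krt5, while most have 1 or more of Krt17.

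In simple epithelial-like cluster 8, the basal keratins stood beside keratins of simple epithelia, the partners Krt8 and Krt18 and the type II keratin Krt7. Krt7, Krt8 and Krt18 belong to the marker list used to name the cluster, so their levels are not separate from its name. Krt7 stood at 889.8 CPM, Krt18 at 567.5 and Krt8 at 425, against Krt17 at 1093, Krt14 at 266 and Krt5 at 58.4. The 4 basal genes made 40.3% of all keratin UMIs there, against 76.7% over all kept cells. The Krt17:Krt14 ratio of 4.11 rests on these 114 cells being apart: with at most 10% mitochondrial UMIs the matching cluster held 216 cells and the ratio was 2.03, and with no cell filter 2702 cells and 1.52. Of 113 thinned cells, 48.7% had Krt17 without Krt5 or Krt14. Trp63 was 7.01 CPM in cluster 8, from 3 UMIs, 11.2 in cluster 4 and 95.9 to 414 in the others. Clusters 8 and 4, with the highest Krt14:Krt5 ratios, thus also had the lowest Trp63. Cluster 10 came next in this ratio at 2.50 (1.97 to 3.17), an interval that overlaps that of cluster 8, and had 292 CPM of Trp63.

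Filaments pair the types 1 to 1, so the UMIs of all type I keratins were set against those of all type II keratins. Type I UMIs were 2.38 (2.35 to 2.40) for each type II UMI over all kept cells. The ratio was 5.85 (5.41 to 6.34) in cluster 4 and lowest in cluster 8 at 1.48 (1.34 to 1.64), with 1.76 to 2.74 in the others. Among type I UMIs, Krt17 made 48.0%, Krt14 39.3% and Krt15 0.133%, and Krt5 made 51.3% of type II UMIs. mRNA was counted here, not protein.

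Co-detection was described in the 11358 thinned cells outside cluster 4. Krt5, Krt14 and Krt17 without Krt15 were found together in 41.1% of them (40.2 to 42.0), and none of the 4 in 4.48% (4.11 to 4.88). Krt14 with Krt17 but without Krt5 was the next most common pattern at 21.5%, ahead of Krt5 with Krt17 at 8.65% and Krt5 with Krt14 at 7.15%. Of the single genes, Krt17 was found alone in 7.92%, Krt14 alone in 5.39% and Krt5 alone in 3.41%. In cluster 4, 59.4% of 1923 thinned cells had none of the 4. In cluster 7, with the highest levels, 0.82% had none and 56.5% had the 3 together.

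**Figure D4:**
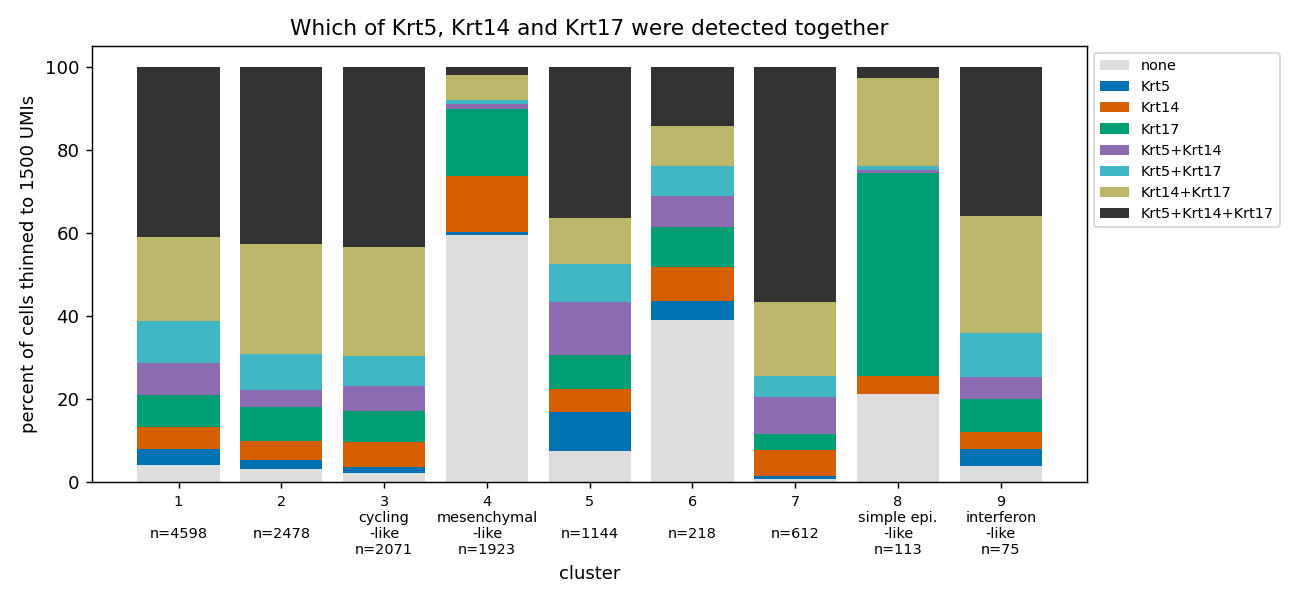
Percent of thinned cells with each combination of Krt5, Krt14 and Krt17 in clusters 1 to 9, whatever their Krt15, with the number of cells below each bar; cluster 10 had under 50 thinned cells and is not drawn. The combination of all 3 is the largest class outside clusters 4, 6 and 8, and Krt17 alone is the largest in cluster 8.

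Detection of one basal keratin went with detection of another. Krt14 was detected in 80.0% (79.0 to 80.9) of cells with Krt5 and in 68.4% (67.0 to 69.7) of cells without it. Krt17 was detected in 83.2% (82.4 to 84.0) of cells with Krt14 and in 67.6% (65.8 to 69.3) of cells without. Krt15 went the other way with Krt17: Krt17 was found in 52.8% (38.6 to 66.7) of the 53 thinned cells with Krt15 and in 79.5% (78.7 to 80.2) of those without.

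Across these cells the counts were weakly correlated, with Spearman's rho 0.223 for Krt5 and Krt14, 0.154 for Krt5 and Krt17 and 0.268 for Krt14 and Krt17. Cells share the depth set by thinning, and low counts hold such values down. With 3000 UMIs per cell the 3 values were 0.342, 0.244 and 0.384 over 5992 cells, and with 5000 UMIs 0.511, 0.395 and 0.498 over 845 cells. The order changed at the greater depth, where Krt5 with Krt14 came first. Deeper cells are other cells too, and this was not separated.

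The balance within a cell was compared with what counting alone would give, in cells with at least 10 UMIs of a pair. The share of Krt14 in the Krt14 and Krt5 UMIs of a cell had a median of 66.7% and ran from 38.5% to 90.9% between the 5th and 95th percentiles. Its SD was 16.2 percentage points, where counting gives 12.8, a factor of 1.26. The share of Krt17 in the Krt17 and Krt14 UMIs varied more, with an SD of 19.8 against 13.0, a factor of 1.52. In cluster 5 this factor was 2.23: the 5th percentile was 0% and the 95th 86.7%.

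Cluster 5 held cells rich in Krt14 with no Krt17. Of its 170 cells with at least 10 Krt14 UMIs, 30 had no Krt17 UMI (17.6%, 12.2 to 24.2). That was 1 of 315 cells in cluster 1, 1 of 88 in cluster 2, 11 of 354 in cluster 3 and 6 of 132 in cluster 7. In cluster 10 it was 4 of only 8 cells, and the interval of that share, 15.7% to 84.3%, includes the share in cluster 5. The 30 cells of cluster 5 had 6376 CPM of Krt14, 1591 of Krt5 and 2116 of Krt6a, a type II keratin of wounded and cultured epithelium. The other 140 cells had 3729 CPM of Krt17, 4754 of Krt14, 1860.1 of Krt5 and 2263 of Krt6a. The median depth was 2353 UMIs in the 30 cells and 3870 in the 140. Krt13 was 499 CPM (351 to 687) in the 30 cells, in 10 of which it was detected, and 142 (113 to 177) in the 140. These sets were chosen after their values were seen.

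Krt15 was found in few cells, and in some of them at several molecules. Of the 89 cells, 59 had 1 UMI, 13 had 2 and 17 had 3 or more. These 17 cells, 12 in cluster 5 and 5 in cluster 2, held 91 of the 176 UMIs (51.7%). The highest cell had 19 Krt15 UMIs of 2628. It also had 6 UMIs of Krt13 and 2 of Krt4, the keratin pair of differentiating oesophageal cells, with 1 each of Krt5, Krt14 and Krt17 and 0 of Vim. Outside cluster 4, Krt15 fell with depth. It was 13.8 CPM (10.7 to 17.5) in the 25% of cells with the fewest UMIs, then 8.14, 1.78 and 1.58 (1.01 to 2.35), while Krt17 moved from 1380.5 to 1717 CPM. Within cluster 5 it was 62.9 CPM (50.3 to 77.8) in the 607 cells at or below the cluster's median depth and 5.61 (3.07 to 9.41) in the 607 above it. Within cluster 2 the intervals of the 2 sets overlapped, at 9.68 (6.20 to 14.4) and 5.99 (4.01 to 8.60).

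Within cluster 5, the 36 cells with Krt15 were compared with the 1178 without. Krt13 was 548 CPM (403 to 729) with Krt15 and 49.7 (42.8 to 57.4) without, with UMIs in 10 of the 36 cells. Krt19, a type I keratin of simple epithelia and of some basal cells, was 852 CPM (668 to 1071) against 419 (398 to 440). Krt14 was 2229 CPM (1924 to 2568) against 1463 (1425 to 1503), whereas Krt17 was lower, 1202 (981 to 1458) against 1578 (1538 to 1619). For Krt5 the intervals overlapped, at 899 (709 to 1123) and 981 (950.0 to 1014). These intervals leave out variation between cells, so they are too narrow for a difference between the 2 sets of cells. In thinned cells of cluster 5 the variance-to-mean ratio was 4.75 for Krt14 and 4.28 for Krt17. Of the 36 cells, 29 were at or below the cluster's median depth, and the part of depth was not tested.

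In cluster 2, the 30 cells with Krt15 shared only part of this. Krt19 was 229 CPM (138 to 358) against 14.9 (12.2 to 18.0), and Krt17 1109 (894 to 1360) against 1861 (1830.1 to 1893). Krt14 was lower there, 844 (658 to 1066) against 1212 (1186 to 1237), the opposite of cluster 5. Krt13 had 0 UMIs in the 30 cells. The difference between the clusters was not tested, since all cells come from 1 sample.

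**Figure D5:**
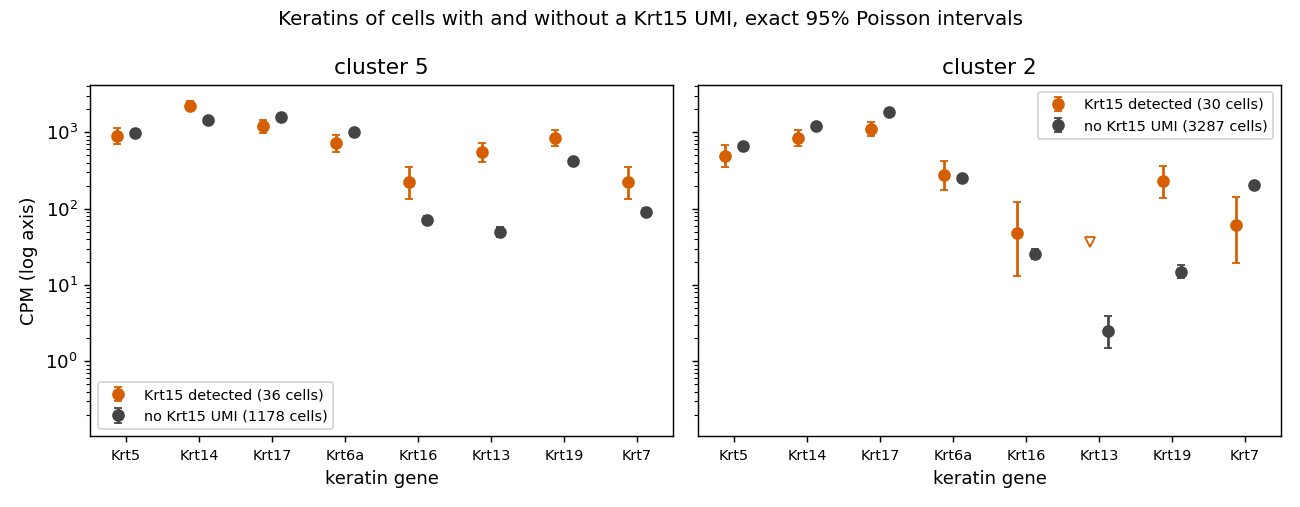
CPM of 8 keratin genes (log axis) in cells with and without a Krt15 UMI in cluster 5 and in cluster 2, with exact 95% Poisson intervals; the open triangle is the value of 3 UMIs where Krt13 had 0. Krt19 is higher and Krt17 lower with Krt15 in both clusters, while Krt13 at 548 against 49.7 CPM is seen in cluster 5.

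Of 48 other keratin genes in the matrix, 8 reached 10 CPM. The type II genes were Krt6a at 369.8 CPM, Krt8 at 122, Krt7 at 90.3 and Krt80 at 11.7. The type I genes were Krt18 at 214, Krt19 at 79.8, Krt10 at 38.4 and Krt16, the partner of Krt6a, at 23.7. Krt6a was highest in cluster 5 at 989 CPM, where its level lay within the interval of Krt5, and Krt16 was highest in clusters 7 (77.8), 10 (76.9) and 5 (73.8). Among the differentiation keratins, Krt10 was thus above this level, while its partner Krt1 was at 0.044 CPM. The oesophageal pair was low over all kept cells, with Krt13 at 6.38 CPM and Krt4 at 0.726, but Krt13 reached 60.8 CPM (53.3 to 69.1) in cluster 5. A further 18 genes, 6 of type II and 12 of type I, had 0 UMIs, which allows up to 0.066 CPM.

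Outside cluster 4, cells were scored for cell cycle phase. Krt5 was 769.8 CPM (753 to 786) in G1 cells, 757 (728 to 788) in S and 647 (618 to 676) in G2M. Krt14 was lowest in G1, at 1290.0 (1269 to 1312), with overlapping intervals in S, 1388 (1347 to 1429), and G2M, 1441 (1398 to 1485). Krt17 was 1550.0 (1527 to 1574) in G1, 1675 (1631 to 1721) in S and 1594 (1549 to 1640) in G2M. The sum of the 4 in G2M over G1 cells was 1.02 (0.998 to 1.04), an interval that includes 1. In S cells the sum was higher than in G1 cells, at 3830 CPM (3763 to 3898) against 3616 (3580 to 3652). The phases differ in clusters, and cluster 3 gave 1584 of the 1981 G2M cells. Within cluster 3, Krt14 was lower in G2M, 1490 CPM (1442 to 1540), than in S, 1653 (1559 to 1751). Within cluster 1 its intervals overlapped, at 1166 in G1, 1207 in S and 1208 in G2M. The part of the clusters in the course of Krt14 and of the sum was not tested.

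The thinned cells outside cluster 4 were next split by the summed UMIs of the 4 genes, 3601 keratin-high cells with at least 7 and 4108 keratin-low cells with at most 3. A gene was called where its CPM, computed without the 4 genes, differed at least 2-fold, reached 10 in the higher set with over 3 UMIs, and the intervals did not overlap. By this rule 35 of 8665 genes tested (0.404%) were higher and 58 (0.669%) lower in keratin-high cells. Over 17 alternative settings these counts ran from 30 to 128 and from 51 to 448. Another random draw of the same 1500 UMIs called 22 of the 35 and 36 of the 58 again, and with at most 10% mitochondrial UMIs 24 and 29 were called again. Median depth before thinning was similar, 3049 and 3086 UMIs. Malat1 was 13899 CPM in the high and 23581 in the low cells, and cluster 6 gave 12 of the high and 178 of the low cells. The part of nuclear RNA in these calls was not tested.

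The genes higher in keratin-high cells included stratified epithelial and wound genes. Krt13 was 22.9 against 1.95 CPM, Krt16 64.5 against 12.02 and Krt6a 680.2 (658 to 703) against 253 (241 to 266). These 3 keratins, with Prl2c5, Sncg, the squamous galectin Lgals7 and the growth factor Ptn, were called under all 17 alternatives. Several of these could not remove a call. A ratio of 1.5 and no minimum CPM only loosen the rule, and detection at 2 UMIs does not enter this split. Also called were Stmn2, Ckmt1, Efemp1 and the desmosomal cadherin Dsc3 (43.2 against 17.7 CPM). The squamous secreted protein Slurp1, with 58 UMIs against 1 (10.8 CPM, 8.21 to 14.0, against 0.162, 0.004 to 0.905), and the serpin Serpinb2 were not called with the other draw. Higher in keratin-low cells were the matrix metalloproteinases Mmp13 (19.3 against 2.80 CPM) and Mmp12, the secreted phosphoprotein Spp1 (353 against 80.7), the chemokine Ccl5, the guidance factor Slit2, the cornified envelope genes Sprr2d (67.9 against 17.7) and Sprr2e, Tnfsf13, Ccbe1 and Cyp2f2. Of these 10, Tnfsf13 was not called with the other draw.

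The gene lists for the basal programme moved little with the keratins. None of 13 tested genes of basal anchorage (integrins, laminins, hemidesmosome proteins) was called, with a median ratio of 1.12, beside 0.946 over all genes tested. None of 13 squamous regulators was called (median 1.05), and Trp63 was 171 CPM (160.2 to 183) in the high and 162 (153 to 173) in the low cells. None of 11 oesophageal progenitor genes was called (0.977). Of 11 desmosome and keratin linker genes, 1 was called higher (Dsc3, median 1.33). Of 9 differentiation genes, 2 were called higher (Krt13 and Lgals7), and of 9 wound and stress genes 3 were (Krt6a, Krt16 and Serpinb2). No gene of these lists was called lower, but Sprr2d and Sprr2e, which are outside the lists, were. Below 2-fold, list genes differed beyond their intervals in both directions, such as Il1a (56.3 against 91.6 CPM) and Perp (701 against 477).

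Between the 9013 thinned cells with Krt17 and the 2345 without, 12 of 8676 genes (0.138%) were higher with Krt17 and 47 (0.542%) lower, with ranges of 7 to 71 and 25 to 368 over the alternatives. Another draw of 1500 UMIs called 4 of the 12 and 28 of the 47 again, and without the 10% highest doublet scores 2 and 34 were called again. Higher in both draws were Prl2c5 (47.5 against 12.8 CPM), the smooth muscle actin gene Acta2 (318 against 114), Nts and the plakin Eppk1, which binds keratin filaments. Of these 4, Acta2 and Eppk1 were not called without the highest doublet scores. Called in the first draw but not in the other were the actin-binding Tagln (23.5 against 8.54), Dpysl2, Adamts1, Glipr2, Gpatch4 and 1500009L16Rik. Lower were the acute phase gene Saa3, arginase Arg1 (6.17 against 43.8 CPM), the interferon gene Ifit1bl1, the cadherin Cdh6, lactoferrin Ltf (43.8 against 193), Fmo2, Sprr2d, Mmp13, the cytokine Il1f9, Adam28 and Krt13 (6.39 against 19.6). Of these 11, Saa3 was not called with the other draw. The sets differ in clusters: cluster 5, led by Ltf and highest in Krt13, gave 17.2% of the cells without Krt17 and 8.22% of those with it, and cluster 6 gave 5.50% and 0.987%. The part of the clusters in these calls was not tested. Krt13 was the only gene of the keratin lists called. None of the 13 anchorage, 12 regulator or 11 progenitor genes was called, and Trp63 was 165 against 168 CPM. Malat1 was higher without Krt17, 25197 against 16694 CPM, though not by 2-fold.

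With Krt15, 234 of 6988 genes (3.35%) were higher and 62 (0.887%) lower, but the set with Krt15 had only 53 cells. Cluster 5 gave 47.2% of them and 9.90% of the cells without Krt15, and the part of this in the calls was not tested. Over the alternatives the counts ran from 154 to 298 and from 40 to 134. Another draw of 1500 UMIs called 117 of the 234 and 27 of the 62 again, and thinning to 1000 UMIs 77 and 12. Genes such as Gm45486, Aqp4, Anxa10 and Adh7 were called from 4 or 5 UMIs in 1 to 3 cells. Called under all 17 alternatives were Krt13, with 25 UMIs in 6 cells (316 against 7.69 CPM), Krt19 (429.7 against 92.0), Krt16 (164 against 30.1) and the squamous surface protein Ly6d (3463 against 1152). Several alternatives, such as a ratio of 1.5 or no minimum CPM, only loosen the rule and could not remove these calls. Of 11 squamous regulators tested, 3 were called higher, with a list median of 1.27 beside 1.28 over all genes tested: Klf5 (215 against 84.4 CPM), Sox2 (164 against 73.4) and Elf3 (101 against 37.1), the last not with the other draw. Of 10 progenitor genes, Sox2 and Id2 were called (median 1.41). Id2, an inhibitor of differentiation factors, was 316 against 90.4 CPM, but was not higher with Krt15 in the 1 cluster where both sets could be compared. Lower were Ly6a (657 against 2415) and the matrix protein Tnc (126 against 463), with 52 and 10 UMIs in the cells with Krt15. The lower calls of the chemokine Ccl2 (2 UMIs, 3.06 to 91.3 CPM, against 306), the hemidesmosome integrin Itgb4 (2 UMIs, 3.06 to 91.3 CPM, against 107) and the cell cycle gene Top2a (3 UMIs, 7.82 to 111 CPM, against 128) rest on few molecules, and Itgb4 was not called with the other draw. Trp63 was not called, at 189.6 (106 to 313) against 166 (160 to 172).

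The 10 genes whose counts went most closely with each member were taken over the 11358 thinned cells. The lists of Krt5 and Krt14 both held Fxyd3, Krt6a and Spink5, and those of Krt14 and Krt17 both held Ppia, S100a10 and Rps2. Besides Krt14, the lists of Krt5 and Krt17 had no gene in common. Among 2602 genes, Krt5 ranked with Krt14 (rho 0.223), the ion transport regulator Fxyd3 (0.205), Ly6d (0.200), Krt6a (0.178), the serine protease inhibitor Spink5 (0.155), Krt17, Wfdc18, Gpx2, Cbr2 and Ucp2. Krt14 ranked with Krt17 (0.268), Fxyd3 (0.238), Krt5, Ppia, Krt6a (0.195), Spink5 (0.193), S100a10, Rps2, S100a11 and Rps12. Krt17 ranked with Krt14, then with the actins Actb and Actg1, Ppia, the small heat shock protein Hspb1, the keratinocyte 14-3-3 protein Sfn, Myl6, Pfn1, S100a10 and Rps2. Krt15 gave no value above that with Ltf, 0.094. In these sparse counts the values are weak and describe an order only.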

How the data were processed

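PC cells were profiled as 1 pooled sample. The authors deposited raw UMI counts per gene and barcode, written by Cell Ranger 8.0.1 per the file headers; the submitters' processing notes name mm10 and Scanpy 1.8.2. Neither header nor labels name the library behind the matrix, which was taken as gene expression. No column of per-sample values was left unused. The genes and lists were chosen with earlier results of these data known.

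Cells were filtered as given above. Scrublet in scanpy 1.11.5 marked 1 cell of 14925, too few for a working call, so doublets were not removed. Clustering used 2000 variable genes, 30 principal components, 15 neighbours and Leiden resolution 0.6 (igraph 0.11.9), without 132 listed genes. A cluster was named where over 50% of a marker list was raised at least 1.5-fold and seen in at least 5% of cells, at least 3 markers were raised and 1 was among the 10 leading genes. This scoring, and the need for over 3 UMIs in a call, were set after the data were seen. Leading genes had the highest ratio among genes seen in at least 25% of a cluster. Phases used 43 S and 54 G2M genes. Intervals are exact Poisson for CPM and Clopper-Pearson for shares and ratios. A count of 0 was given the limit of 3 UMIs.

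The genes named are the 4 members, keratins of at least 10 CPM, the 10 genes most correlated with each member, up to 10 called genes per direction with the called list genes, Trp63, Vim, Epcam, Malat1 and each cluster's leading genes. Krt13, Krt4 and Krt1 below 10 CPM come from the lists. The call rule was run on simulated Poisson counts. These had no variation between cells and no choice of cells by a gene, so the run does not cover either. Alternatives covered the filter, thinning, doublets, detection, clustering and the call rule.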

Additional observations from a re-analysis of the deposited data

Results flagged for a closer look

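The 3191 barcodes left out by the cell filter, with a median of 696 UMIs, also carried basal keratin UMIs, in data outside the comparisons. Krt17 was present in 17.2% of them (15.9 to 18.6), Krt14 in 11.8% (10.7 to 12.9), Krt5 in 8.34% (7.40 to 9.35) and Krt15 in 0.125% (0.034 to 0.321). A count of 0 would allow up to 0.094%, so Krt15, with 4 UMIs, lies just above this limit. The levels were 316 CPM of Krt17, 233 of Krt14 and 152 of Krt5, all below those of the kept cells. The Krt14:Krt5 ratio was 1.54 (1.34 to 1.76) and the Krt17:Krt14 ratio 1.36 (1.21 to 1.52).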

How the results depend on the processing

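Over 17 alternatives, no ratio whose interval excluded 1 and no correlation changed direction. The Krt14:Krt5 ratio over kept cells was 1.82 in each, and 8 other keratins reached 10 CPM each time. Only the cell filters and the removal of high doublet scores change the kept cells. The other alternatives could therefore not move these values or the summed level over kept cells. The summed level of the 4 genes was 3175 CPM, 3057 with no cell filter and 3203 with at most 10% mitochondrial UMIs. Their sum outside over inside the mesenchymal-like cluster was 6.49-fold, 6.22 with no filter and 9.33 without the 10% highest doublet scores. The sum in G2M over G1 cells was 1.02, 0.989 with at least 1000 genes and 2000 UMIs, and 1.05 without the low-UMI cluster 6.

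Depth set the shares. Krt5, Krt14 and Krt17 occurred together in 35.5% of all thinned cells, in 21.2% at 1000 UMIs, in 58.7% at 3000, in 54.9% with no thinning and in 10.9% with detection at 2 UMIs. Spearman's rho of Krt5 and Krt14 was 0.342 at 3000 UMIs and 0.467 with no thinning, where depth differs between cells.

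Counts of called genes moved most. In keratin-high against keratin-low cells, 35 higher and 58 lower genes became 56 and 448 at 1000 UMIs, 64 and 197 with no thinning, 125 and 366 at a ratio of 1.5, 69 and 138 with no minimum CPM, and 128 and 344 between the upper and lower 10%. At 3000 UMIs, 94 were lower. With Krt17, 12 higher and 47 lower genes became 49 and 88 at 3000 UMIs, 62 and 368 with no thinning, 7 and 25 with detection at 2 UMIs, 71 and 271 at a ratio of 1.5, and 28 and 128 with no minimum CPM. At 1000 UMIs, 71 were lower. With Krt15, 154 instead of 234 genes were higher at 3000 UMIs. Instead of 62, there were 40 lower with at least 2000 UMIs per cell, 134 with no thinning and 113 at a ratio of 1.5. UMIs in at least 5 cells of the higher set, a setting chosen after seeing the data, left 188 of the 234 and every other count as it was.

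Of the other 204 values, over single genes, shares and correlations, 31 moved beyond their counting interval, or 0.05 for a correlation; the cause was not tested. No paired analysis was possible because there is 1 sample. The low number of molecules limits the results on Krt15 above all, with 176 UMIs in all.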
